A study of Homo sapiens with 6 samples.

Results

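The genes described here encode the proteins of the cytosolic ribosome. They were chosen by symbol alone: RPL or RPS followed by a number and at most 1 letter of A, X or L, together with RPLP0, RPLP1, RPLP2 and RPSA. This gave 76 genes, 46 of the large subunit (RPL) and 30 of the small subunit (RPS, with RPSA), of 12301 genes counted in both treatments. Pseudogenes and the RPS6K kinases were outside the rule.

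The counts came from RNA sequencing of NB4, a human cell line established from acute promyelocytic leukemia. Each of 6 libraries was made from cells that carried 1 construct and received 1 treatment. The tested cells were ATRA-treated: NB4 with SMARCD2-specific shRNA1 (hairpin 1), with SMARCD2-specific shRNA2 (hairpin 2) and with a control construct, each in 1 µM all-trans retinoic acid, which drives NB4 towards granulocytes and which the labels call differentiated. The same 3 constructs in the solvent DMSO, labelled undifferentiated, were the untreated libraries. SMARCD2 is a subunit of SWI/SNF chromatin remodelling complexes. All libraries share 1 leukemic line. No source used here states the time in ATRA, the vector or the control sequence, and each treatment has 1 control library. Since the labels do not say that constructs were grown as separate cultures, the p-values measure only the spread between these libraries.

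Ribosomal proteins are made in near equal numbers and assemble with ribosomal RNA in the nucleolus, and proteins made in excess are degraded. Their mRNAs share a terminal oligopyrimidine (TOP) motif, a C followed by an unbroken run of pyrimidines at the 5′ end, through which mTORC1 and the RNA-binding protein LARP1 control their translation and stability. Promyelocytes are large, biosynthetically active cells, and ribosome production is known to decline as granulocytes mature. Inherited loss of 1 copy of several of these genes causes Diamond-Blackfan anaemia, a failure of red cell production.

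The TOP motif can be read in the reference sequence around the annotated transcription start. Each window holds the 10 bases before the start and the first 20 bases of the transcript, 5′ to 3′ on the coding strand, from RefSeq GRCh38.p14, with the unbroken pyrimidine run across the start in capitals. They are shown for 5 members that fell in ATRA, some deeply and RPL39 little, and then for the 4 members that did not fall.
RPS6: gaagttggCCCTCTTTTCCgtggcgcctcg
RPS3: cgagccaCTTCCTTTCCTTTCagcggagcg
RPL7A: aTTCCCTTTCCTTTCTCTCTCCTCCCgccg
RPL39: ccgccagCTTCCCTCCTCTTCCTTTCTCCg
RPLP0: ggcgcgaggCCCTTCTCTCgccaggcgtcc
RPS9: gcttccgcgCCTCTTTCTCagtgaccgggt
RPS19: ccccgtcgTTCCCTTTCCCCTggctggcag
RPS27: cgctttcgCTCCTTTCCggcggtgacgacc
RPS27L: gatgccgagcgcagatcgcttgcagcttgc
The windows lie at chr9:19380217-19380246 (RPS6, minus strand), chr11:75399508-75399537 (RPS3, plus), chr9:133348208-133348237 (RPL7A, plus), chrX:119791611-119791640 (RPL39, minus) and chr12:120201092-120201121 (RPLP0, minus). Those of the other 4 lie at chr19:54200848-54200877 (RPS9, plus), chr19:41860245-41860274 (RPS19, plus), chr1:153990752-153990781 (RPS27, plus) and chr15:63157458-63157487 (RPS27L, minus). Each covers the end of the promoter and the first bases of the first exon. RPS9, RPS19 and RPS27 carry a run of 9, 11 and 7 pyrimidines from the start, as RPS6 and RPLP0 carry one of 9. Among the windows printed, only that of RPS27L, a paralog of RPS27, has no such run.

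Over the 61 members with a RefSeq promoter entry, 41 (67.21%) began with a C and at least 5 pyrimidines in a row at the annotated start, against 5.09% of 9488 other genes tested. With the start allowed to lie within 15 bases of the annotated one, a run of at least 8 pyrimidines was found in 73.77% of members and in 12.35% of the other genes. In the whole window of 250 bases before to 50 after the start, both strands searched, CCGGAAG (the ETS or GABP box) was found in 34.43% of members and 18.95% of other genes. AAGATGG (a YY1 core) was found in 13.11% and 7.64%. CACGTG (the E-box read by MYC) was found in 4.92% and 10.17%, GGGCGG (the SP1 box) in 57.38% and 68.82%, and TATAAA in 8.2% and 5.62%. These are matches of letters and show no binding.

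Library totals ran from 29291209 to 58099733 counts, each the sum of 2 count columns, taken as the 2 sequencings of a sample that the series text describes, of which run 1 gave 70.61% to 80.74% in the hairpin libraries and 53.11% and 54.65% in the control libraries. SMARCD2 had 64.2 and 35.6 CPM (counts scaled to library size) with hairpins 1 and 2 in ATRA, against 122 in the control, and 39.0 and 25.7 CPM in DMSO, against 95.5 in the control. It was lower with both hairpins in both treatments but did not pass across all genes in edgeR (log2 fold change −1.29, adjusted p = 0.32 in ATRA, and −1.55, adjusted p = 0.39 in DMSO). The promyelocyte marker MPO had 4298 to 5764 CPM in ATRA, against 9866 to 10044 CPM in DMSO, and of 5 such markers tested 2 rose and 3 fell. Of 2 lymphoid markers tested 1 rose, CD79A, with 34.0 to 34.4 CPM in ATRA, against 0.957 to 1.46 CPM in DMSO. Of 2 epithelial markers 1 fell, EPCAM, with 14.1 to 15.4 CPM in ATRA, against 17.9 to 19.1 CPM in DMSO. The part of such markers in the results below was not tested. All 4 markers of maturing granulocytes rose in ATRA, ITGAM to 455 to 477 CPM, against 25.3 to 38.3 CPM in DMSO. None of 4 erythroid genes was among the genes tested. In RNA from a whole culture, fewer cells that express a gene and less of its RNA per cell cannot be told apart.

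In ATRA the ribosomal protein genes took a smaller part of the transcriptome. They held 4.75% of counts with hairpin 1, 4.49% with hairpin 2 and 5.06% in the control in ATRA, against 8.36%, 7.88% and 8.37% in DMSO. The widest Wilson 95% interval, which covers counting error only, ran from 8.36% to 8.38%, in the DMSO control. All 3 ATRA libraries lay below all 3 DMSO libraries. The share in ATRA was 0.568, 0.57 and 0.604 of that in DMSO with hairpin 1, with hairpin 2 and in the control. Large subunit genes held 2.77% to 3.08% of counts in ATRA, against 4.95% to 5.23% in DMSO, and small subunit genes 1.73% to 1.97%, against 2.94% to 3.15%.

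**Figure D1:**
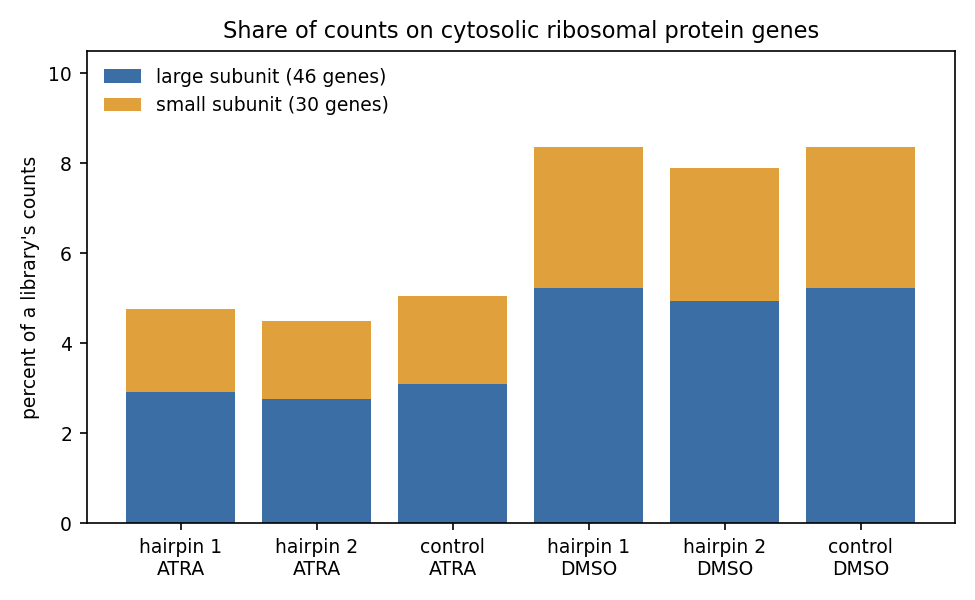
Percent of each library's counts (y axis, from 0) that fell on the 46 large subunit genes (blue) and, stacked on them, the 30 small subunit genes (orange), 1 bar per library. The 3 ATRA libraries reach 4.49% to 5.06%, and the 3 DMSO libraries 7.88% to 8.37%.

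The fall was spread over nearly every member. In edgeR's quasi-likelihood test across all genes, with p-values adjusted by Benjamini-Hochberg and called under 0.05, 72 of 76 members (94.7%) were lower in ATRA, where 37.8% of all genes tested were. Only 2 members (2.63%), RPS9 and RPS19, were higher, where 36.2% of all genes were. RPS27 and RPS27L did not pass. The median log2 fold change of the members was −0.59, a level of 66.4% of that in DMSO, and that of all genes was −0.01. The interquartile range of the members was −0.74 to −0.49, and 39 of them were lower by at least 1.5-fold, 2 of these by at least 2-fold.

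All 46 large subunit genes fell, with a median log2 fold change of −0.60. Of the 30 small subunit genes, 26 fell and 2 rose, with a median of −0.55. The 3 ATRA libraries lay below all 3 DMSO libraries in CPM for 72 members, a pattern that 39.5% of all genes showed. They lay above them for 3 members, RPS9, RPS19 and RPS27L, a pattern that 37.6% of all genes showed. Computed within each construct, the median log2 ratio of ATRA over DMSO was −0.63 with hairpin 1, −0.65 with hairpin 2 and −0.51 in the control. With scaling by total counts the median of all genes moved by −0.13, and 73 members were lower, RPS27 being the one added.

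**Figure D2:**
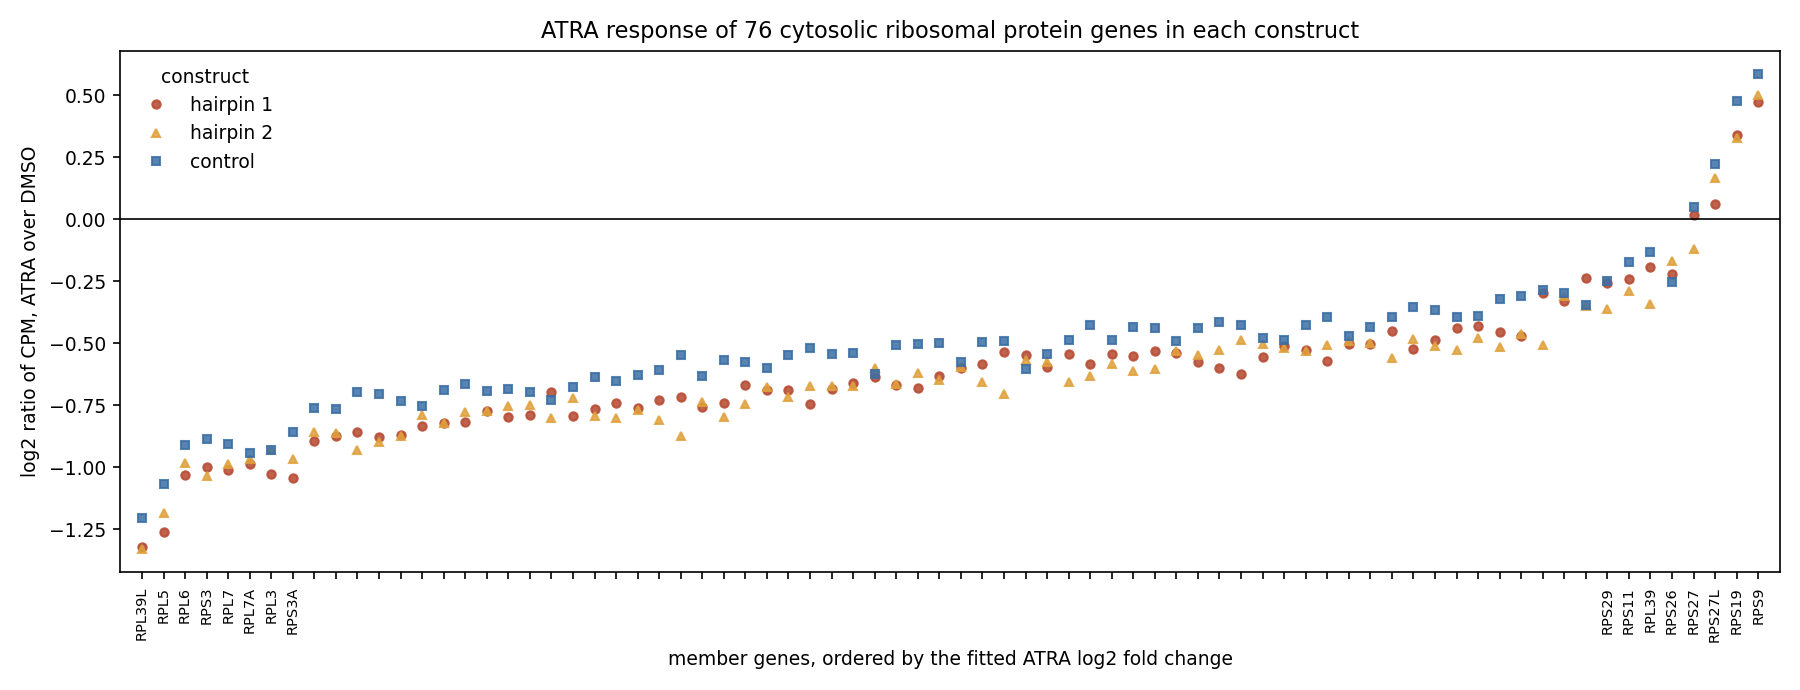
Log2 ratio of CPM in ATRA over DMSO (y axis) for each of the 76 genes (x axis, in order of the fitted fold change, with the genes at both ends named), with 1 point for hairpin 1, hairpin 2 and control. All but RPS27, RPS27L, RPS19 and RPS9 lie below 0 in all 3 constructs, and RPS27L, RPS19 and RPS9 lie above 0 in all 3.

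Among the large subunit genes the deepest fall was that of RPL39L, a paralog of the exit tunnel protein RPL39 that is best known from testis. RPL39L had 5.34, 6.56 and 6.59 CPM with hairpin 1, with hairpin 2 and in the control in ATRA, against 13.3, 16.5 and 15.2 CPM in DMSO. Its ATRA libraries held less than any DMSO library, and the log2 fold change was −1.29 ± 0.125 (SE; adjusted p = 2.1e-05). It averaged 6.16 ± 0.715 CPM in ATRA and 15 ± 1.57 CPM in DMSO (SD, n = 3 each), the lowest member in ATRA, while RPS27L was the lowest in DMSO.

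RPL39 itself behaved otherwise, with 364, 334 and 368 CPM in ATRA, against 416, 424 and 404 CPM in DMSO. The groups did not overlap, but the fold change was only −0.22 ± 0.0521 (log2, SE; adjusted p = 0.0044), among the smallest falls. Its start carries the longest pyrimidine run of the 61 members with an entry, 19 bases. RPL3 and RPL10, the broadly expressed genes of the paralog pairs with RPL3L and RPL10L, fell by 0.96 and 0.54 on the log2 scale. RPL3L and RPL10L fit the rule but were among the counted genes of neither treatment. RPL3 lies near the peptidyl transferase centre, and RPL10 is among the last proteins loaded on the large subunit.

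RPL5 and RPL11 form the 5S particle, which carries 5S ribosomal RNA into the large subunit and, when free, binds MDM2, the ubiquitin ligase of p53. RPL5 had 878, 820.4 and 959 CPM in ATRA, against 2102, 1862 and 2011 CPM in DMSO. Its level in every ATRA library was under that in every DMSO library, at 44.5% on average, with a log2 fold change of −1.17 ± 0.0637 (SE; adjusted p = 5.8e-07). Its partner RPL11 fell less, to 489.7, 446 and 522 CPM in ATRA, against 734, 703 and 735 CPM in DMSO, a log2 fold change of −0.58 ± 0.0544 (SE; adjusted p = 1.8e-05). The difference between the partners was not tested.

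RPL6, RPL7 and RPL7A, proteins bound to ribosomal RNA in the body of the large subunit, followed RPL5. RPL6 averaged 1047 ± 83.3 CPM in ATRA and 2056 ± 112 CPM in DMSO (SD, n = 3 each). RPL7 averaged 878 ± 56.9 CPM in ATRA and 1717 ± 91.3 CPM in DMSO. RPL7A averaged 719.8 ± 36.5 CPM in ATRA and 1404 ± 63 CPM in DMSO. All 3 were at 50.9% to 51.3% of their DMSO level, and none of their ATRA libraries reached a DMSO library.

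The P stalk, made of RPLP0 and copies of RPLP1 and RPLP2, recruits the translation factors that hydrolyse GTP. RPLP0 had 1890.5, 1799 and 1927 CPM in ATRA, against 2941, 2727 and 2969.6 CPM in DMSO (log2 fold change −0.62 ± 0.0491, SE; adjusted p = 5.9e-06). RPLP1 fell by 0.52 and RPLP2 by 0.50 on the log2 scale, with adjusted p of 6e-05 and 0.00054. RPSA, a small subunit protein also known as the laminin receptor precursor, fell by 0.49 (adjusted p = 1.4e-05). For each of the 4, no ATRA library reached the lowest DMSO library.

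In the small subunit the deepest falls were those of RPS3 and RPS3A. RPS3, at the entry of the mRNA channel, had 1009.6, 965 and 1188 CPM in ATRA, against 2016, 1977 and 2195 CPM in DMSO (log2 fold change −0.97 ± 0.0488, SE; adjusted p = 3.6e-07). RPS6, the best known substrate of the S6 kinases, had 2613, 2428 and 2968 CPM in ATRA, against 4803, 4521 and 4842 CPM in DMSO (log2 fold change −0.83 ± 0.0586, SE; adjusted p = 3e-06). In both genes the ATRA libraries lay far under the DMSO libraries, and the control in ATRA was the highest of the 3.

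RPS9 and RPS19 went the other way. RPS9, a protein of the small subunit body close to the mRNA channel, had 764, 715 and 781 CPM in ATRA, against 551, 506 and 521 CPM in DMSO. RPS19, a protein of the subunit's head needed for 18S ribosomal RNA maturation and the gene most often mutated in Diamond-Blackfan anaemia, had 613, 568 and 665 CPM in ATRA, against 484, 453 and 477 CPM in DMSO. In both genes every ATRA library was above every DMSO library.

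The log2 fold change of RPS9 was 0.52 ± 0.0537 (SE; adjusted p = 3.2e-05) and stayed between 0.39 and 0.57 over 17 alternatives, with adjusted p of at most 0.000554. That of RPS19 was 0.38 ± 0.0551 (SE; adjusted p = 0.00026) and stayed between 0.25 and 0.43, with adjusted p of at most 0.00304. RPS9 stood at 143.2% and RPS19 at 130.5% of the DMSO level. RPS9 is overlapped on the opposite strand by LILRB3, which had 21.7 to 24.3 CPM in ATRA, against 0.365 to 0.876 CPM in DMSO. CD79A, the neighbour of RPS19, does not overlap it.

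RPS27, a zinc finger protein of the small subunit, had 298, 262 and 303 CPM in ATRA, against 294, 284 and 293 CPM in DMSO. The groups overlapped, and the log2 fold change was −0.02 ± 0.0575 (SE; adjusted p = 0.80). Its paralog RPS27L, known as a p53 target, had 15, 14.6 and 14.4 CPM in ATRA, against 14.3, 13 and 12.3 CPM in DMSO. The RPS27L groups lay next to each other without overlap, and its log2 fold change of 0.15 ± 0.0822 (SE) did not pass (adjusted p = 0.14).

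Between these and the bulk of the members stood RPS26 and RPL41. RPS26, at the exit of the mRNA channel, had 122, 124 and 112 CPM in ATRA, against 143, 139.9 and 134 CPM in DMSO (log2 fold change −0.22 ± 0.0416, SE; adjusted p = 0.0015). RPL41, the shortest ribosomal protein, had 696, 648 and 652 CPM in ATRA, against 820.2, 824 and 828 CPM in DMSO (log2 fold change −0.31 ± 0.0463, SE; adjusted p = 0.00032). Neither pair of groups overlapped.

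A list of Diamond-Blackfan anaemia and 5q- syndrome genes had 17 members tested here. Of these, 16 fell and RPS19 rose, with a median log2 fold change of −0.58. This was close to the whole set, of which 72 of 76 members fell, with a median of −0.59. RPS14, the gene of the 5q- syndrome, averaged 735 ± 60 CPM in ATRA and 1005 ± 38.2 CPM in DMSO (SD, n = 3 each; log2 fold change −0.45, adjusted p = 0.00018). RPS10 was at 56.2%, RPS7 at 60.3%, RPS24 at 61.6% and RPL35A at 66.4% of the DMSO level. RPS26 and RPS29 fell least, to 86.2% and 81.9%.

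Per kilobase of coding sequence RPL41 stood highest, at 8866 ± 354.5 CPM per kb in ATRA and 10988.5 ± 50.2 CPM per kb in DMSO (SD, n = 3 each). RPL18 followed with 3957 ± 200.5 in ATRA and 6666 ± 226 in DMSO, and RPS6 with 3574 ± 367 in ATRA and 6321 ± 234.5 in DMSO, both in CPM per kb. The libraries of RPL18 and RPS6 overlapped in both treatments. RPS28 came next, at 2841 ± 87.7 in ATRA and 3837 ± 22.7 in DMSO, and RPL13, RPL37A, RPLP1 and RPL13A lay within 2190.3 to 2351 in ATRA and 3353 to 3659 in DMSO. These last 4 had SDs of 105.7 to 267 CPM per kb, so that their order cannot be told apart from that spread. RPL39 and RPLP0 completed the 10 highest.

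The size of the fall went with coding length. The 11 members under 300 bases had a median log2 fold change of −0.36, the 43 from 300 to under 600 bases one of −0.58, and the 22 of 600 bases or more one of −0.74. Over the 76 members Spearman's correlation between coding length and log2 fold change was −0.51, and within constructs it was −0.52 with hairpin 1, −0.41 with hairpin 2 and −0.57 in the control. This is a description over genes that share the same libraries. Mean CPM also went with the fold change, at −0.44. Among the other genes the same length ranges, up to the length of the longest member, had medians of 0.10, 0.01 and −0.02.

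**Figure D3:**
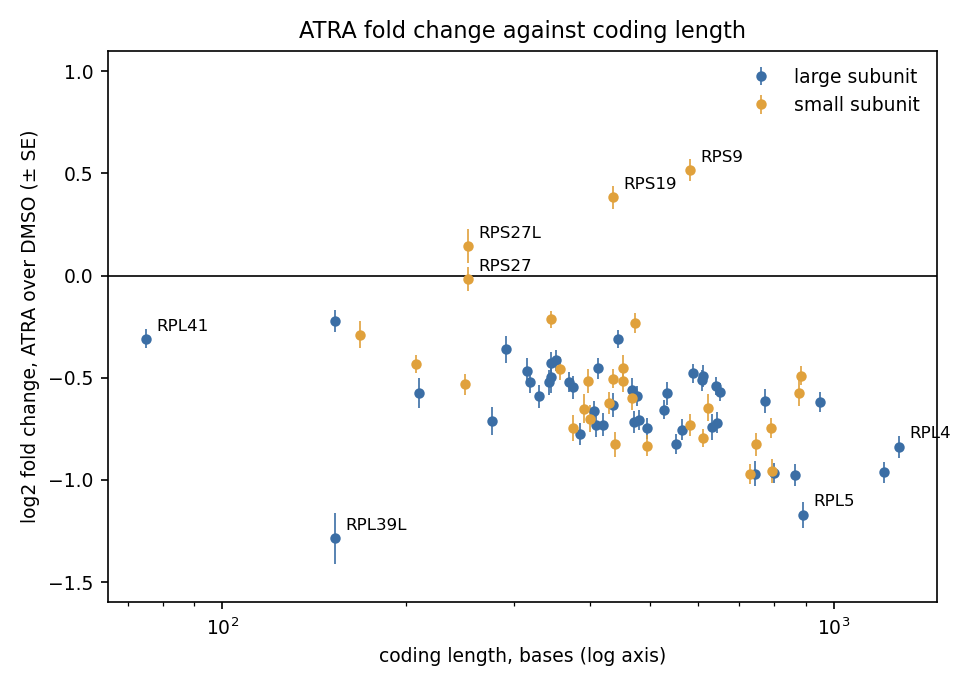
Fitted log2 fold change of ATRA over DMSO with its SE (y axis) against coding length in bases (x axis, log scale), 1 point per gene, large subunit in blue and small subunit in orange. The medians go from −0.36 under 300 bases to −0.74 at 600 bases or more, with RPL39L below and RPS9, RPS19 and RPS27L above the other members.

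The 41 members with a run of at least 5 at the annotated start had a median log2 fold change of −0.57, and the 20 without it one of −0.59. The split rests on the annotated base, and 55 of the 61 had such a run within 15 bases of it, as did 42.17% of the other genes. RPS9, RPS19 and RPS27 belong to the set with a run at the start, and so do RPS3, RPS6 and RPL39.

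Reads of these genes can be shared with near-identical copies. GENCODE 29 lists pseudogenes named after 73 of the 76 members, up to 91 for RPL23A, and no source used here says how reads with several positions were counted. RPL28, RPL39L and RPS27L have none by name. A protein-coding neighbour overlaps 32 members, among them RPL5, RPS9 and RPS27L, so that their counts are uncertain. Strand, where used, would part reads of opposite-strand overlaps but not those of overlaps on the same strand. Among the latter are RPS10 with RPS10-NUDT3, RPL17 with RPL17-C18orf32 and RPS13 with PIK3C2A. NKIRAS1, opposite RPL15, had 930, 891 and 968 CPM in ATRA, against 1361, 1242 and 1256 CPM in DMSO. RPL15 itself had 947, 913 and 991 CPM in ATRA, against 1408, 1299 and 1304 CPM in DMSO. FAM69A, opposite RPL5, had 694.9, 647.5 and 775.9 CPM in ATRA, against 1640.9, 1436.5 and 1554.5 CPM in DMSO. Its log2 fold change was −1.13, beside −1.17 for RPL5. IQCG, opposite RPL35A, fell by 0.59 on the log2 scale, as RPL35A did. PTPN11, opposite RPL6, did not move with it (0.08 and −0.98 on the log2 scale), nor did SPHK2, opposite RPL18 (0.38 and −0.75). Whether overlapping genes shared reads was not tested.

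Beyond the 76 genes, 7 ribosomal protein genes that the rule leaves out were tested, and 5 fell and 1 rose, with a median log2 fold change of −0.24. Of all genes tested 37.8% fell and 36.2% rose. GNB2L1 (RACK1), a scaffold on the small subunit, averaged 767 ± 69.5 CPM in ATRA and 1374 ± 78.3 CPM in DMSO (SD, n = 3 each). RPL36AL, a paralog of RPL36A, averaged 130.5 ± 2.02 CPM in ATRA and 87.0 ± 3.53 CPM in DMSO. Their log2 fold changes were −0.84 (adjusted p = 1.1e-06) and 0.59 (adjusted p = 4.5e-06). RPL36A, by contrast, was among the 72 members that fell.

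Other TOP mRNAs moved with the ribosomal proteins: all 15 on the list fell, with a median of −0.66, where 37.8% of all genes tested fell. NPM1, a nucleolar chaperone, had 733, 719 and 763 CPM in ATRA, against 1603, 1548 and 1489.7 CPM in DMSO (log2 fold change −1.07 ± 0.0497, SE; adjusted p = 2.3e-07). VIM, the intermediate filament vimentin, fell most, by 2.76 on the log2 scale. Elongation and termination factors fell in 11 of 12 cases, with a median of −0.60. The lists share genes: EEF1A1, EEF1B2, EEF1D, EEF1G and EEF2 are on both this list and the TOP list. EIF3E, EIF3F, EIF3H and EIF3L are on the TOP list and among the initiation factors below. NAP1L1 is on the TOP list and among the chaperones below. EEF2, which moves the ribosome along the mRNA, fell by 0.99 and EEF1G, a subunit of the EEF1A exchange factor, by 1.00 on the log2 scale.

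Initiation factors were more mixed, with 22 of 31 lower and 3 higher and a median of −0.33. Of all genes tested 37.8% were lower and 36.2% higher. EIF4B, a helper of the helicase eIF4A, fell by 1.02 and EIF3E by 0.86 on the log2 scale, while EIF5 rose by 0.41 and EIF4G2 by 0.32. Of 15 chaperones and import factors of ribosomal proteins 12 fell and 2 rose, with a median of −0.31. IPO4 fell by 1.00 and NAP1L1 by 1.02, and KPNB1, importin beta, rose by 0.39 and TSR2, the chaperone of RPS26, by 0.30.

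The calls among regulators were mixed, as they were over all genes tested, of which 37.8% fell and 36.2% rose. Of 18 genes of mTORC1 and its translation control, 7 fell and 5 rose, with a median of −0.10. DDIT4, an inhibitor of mTORC1 signalling, fell by 1.38, and MLST8, a subunit of the complex, by 0.65. PDCD4, an inhibitor of eIF4A, rose by 0.50 and the S6 kinase RPS6KB2 by 0.38. Of 14 candidate transcription factors of ribosomal protein promoters, 6 fell and 5 rose. MYC, a driver of ribosome production, had 216, 233 and 192 CPM in ATRA, against 1134, 998 and 1033 CPM in DMSO (log2 fold change −2.31 ± 0.0691, SE; adjusted p = 2e-08), and E2F1 fell by 0.94. SP1 rose by 0.66 and ZBTB7A by 0.56.

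**Figure D4:**
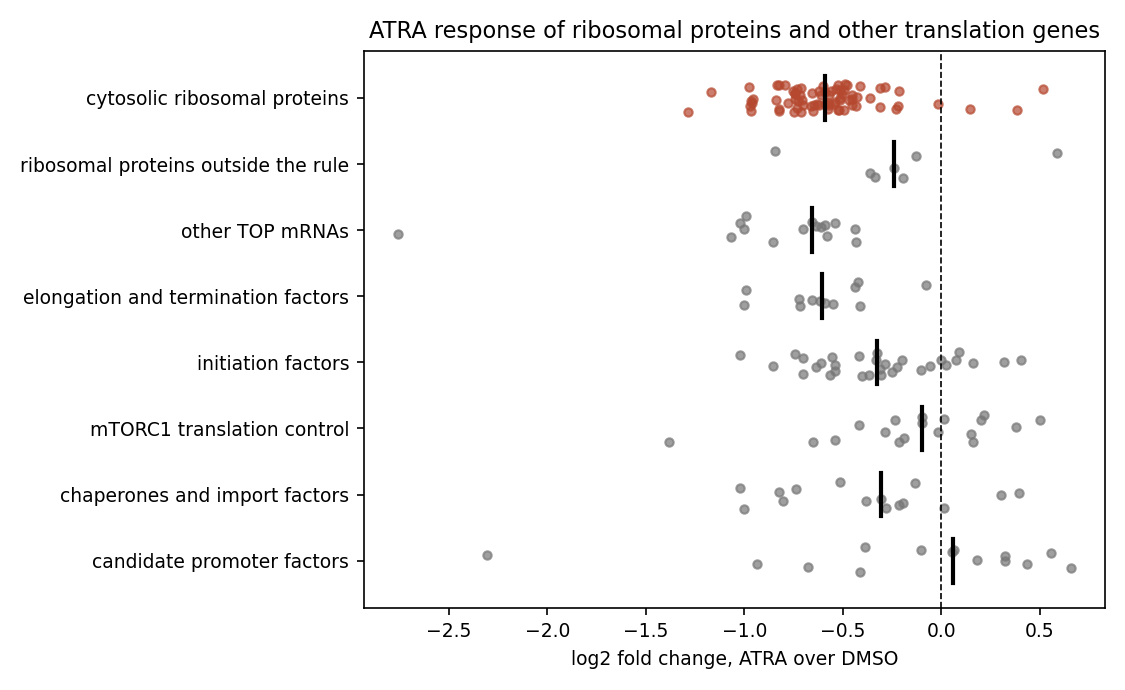
Log2 fold change of ATRA over DMSO (x axis) for the 76 ribosomal protein genes (red) and 7 other lists of translation genes (grey), 1 point per gene with the median as a black bar. Genes on more than 1 list are drawn in each. The medians are −0.59 for the ribosomal proteins, −0.66 for other TOP mRNAs, −0.60 for elongation and termination factors, −0.33 for initiation factors and −0.10 for mTORC1 genes.

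The knockdown comparisons ask whether lower SMARCD2 goes with a change of ribosomal protein mRNAs in undifferentiated and in differentiated cells. In ATRA edgeR called none of the 76 members, where it called 0.00813% of all genes lower and 0.0% higher. An unadjusted edgeR p under 0.05 was found for 8 of 76 members and 1329 of 12301 genes, which are similar shares. DESeq2 called 1 member, RPS3. The fitted log2 fold changes of hairpins over control were small, with a median of −0.12, and lay below 0 for 73 members, against a median of 0.00 for all genes. Both hairpins were below the control for 65 members (85.5%), a pattern that 37.4% of all genes showed, and both were above it for 2 members (2.63%) and 39.2% of all genes. The medians against the 1 control library were −0.08 for hairpin 1 and −0.18 for hairpin 2, and with both runs brought to equal depth the fitted median was −0.14.

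The members with the lowest values in ATRA were RPS3, RPS6, RPL32, RPS3A, RPS16 and RPL6, at −0.27 to −0.19. For RPS3 the hairpins had 1009.6 and 965 CPM in ATRA, against 1188 CPM in the control, a log2 fold change of −0.27 ± 0.0657 (SE; edgeR adjusted p = 0.32; DESeq2 adjusted p = 0.0497, and 0.00713 to 0.987 over 16 alternatives). For RPS6 they had 2613 and 2428 CPM in ATRA, against 2968 CPM in the control (log2 fold change −0.24 ± 0.0762, SE; adjusted p = 0.39). RPS26 had the highest value, 122 and 124 CPM with the hairpins against 112 CPM in the control (0.14 ± 0.0625, SE; adjusted p = 0.47), followed by RPL41 and RPS27L at 0.04 each.

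In DMSO edgeR again called none, where it called 0.0% of all genes, and DESeq2 called no member. Of the 76 members 1, RPS2, and of 12301 genes 868 had an unadjusted edgeR p under 0.05. The members' median was −0.02, with 33 above 0 and 43 below, and the hairpins lay on both sides of the control: the median ratio was 0.03 with hairpin 1 and −0.05 with hairpin 2. Both hairpins were below the control for 20 members (26.3%), where 34.9% of all genes were, and above it for 8 of the 76, where 35.0% of all genes were. RPS2, a protein of the mRNA entry channel, had 1746 and 1566 CPM with hairpins 1 and 2, against 1945 CPM in the control (log2 fold change −0.23 ± 0.096, SE; adjusted p = 0.71). RPL13, RPS3, RPS4X, RPL6 and RPL32 followed at −0.15 to −0.08. RPS27L (0.15), RPL37A (0.10), RPS26 (0.08), RPS25 (0.07), RPL39 and RPL38 (0.06 each) had the highest values, none of which passed.

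**Figure D5:**
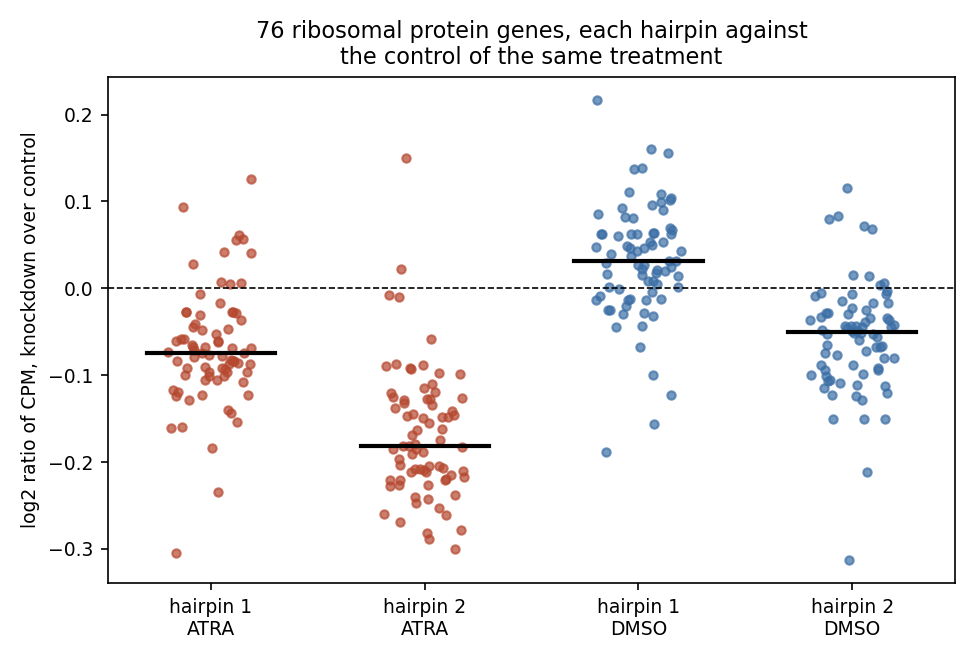
Log2 ratio of CPM of each hairpin over the control of the same treatment (y axis), 1 point per gene, with the median of the 76 genes as a black bar. The medians are −0.08 and −0.18 for hairpins 1 and 2 in ATRA and 0.03 and −0.05 in DMSO, so that hairpin 2 lies below hairpin 1 in both treatments.

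Over both treatments together edgeR called no member and 0.0% of all genes. DESeq2 called no member, and 8 of 76 members and 1003 of 12301 genes had an unadjusted edgeR p under 0.05. The median was −0.06. RPS2 (−0.21), RPS3 (−0.20), RPL13 (−0.16), RPS6 and RPL32 (−0.15 each) and RPL6 (−0.14) were lowest, and RPS26 (0.11), RPS27L (0.10), RPS25 and RPL41 (0.02 each) highest. For RPL41 the value was −0.015 in run 1 and −0.027 in run 2 taken alone. Both hairpins were below the control in both treatments for 19 of the 76 members and 14.2% of all genes.

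The ATRA response of knockdown and control cells was compared by the interaction term. No member passed in edgeR or in DESeq2, where edgeR called 0.0488% of all genes lower and 0.0% higher. None of the 76 members and 979 of 12301 genes had an unadjusted edgeR p under 0.05. The fitted difference lay below 0 for 72 members, with a median of −0.12. The ratio of ATRA over DMSO was highest in the control, a single library per treatment, for 70 members and for 37.1% of all genes. RPL37A had the largest difference, −0.25 ± 0.119 (log2, SE; adjusted p = 0.66). It had 622 and 548 CPM with the hairpins and 649 CPM in the control in ATRA, against 1023 and 1005 CPM with the hairpins and 949 CPM in the control in DMSO. RPS24, RPS16, RPS6 and RPL31 were among those that followed, at −0.20 to −0.18, and RPS26, RPL41, RPS2 and RPLP0 lay at 0.06 to 0.01.

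In the authors' deposited tables, which compare knockdown with control within each treatment, 73 members had a negative and 3 a positive log2 fold change in ATRA, and 2 passed an adjusted p of 0.05. The authors' deposited table gives −0.193 with an adjusted p of 0.0295 for RPL32 and −0.17 with 0.0439 for RPL5. In DMSO the authors' deposited table has 59 members below and 17 above 0, and RPS2 alone passed, at −0.223 with an adjusted p of 0.0317. No source used here says whether both runs of a library entered those tests as separate samples. The share of all genes that passed or lay below 0 in the deposited comparisons is not given here, so these counts cannot be read as particular to the members.

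The hairpins were compared with each other over the 4 knockdown libraries, with 1 residual degree of freedom. Hairpin 2 was below hairpin 1 in both treatments for 72 members (94.7%), a pattern that 28.7% of all genes showed, and above it in both for 1 (1.32%), where 26.8% of all genes were. SMARCD2 was also lower with hairpin 2, at 35.6 CPM with hairpin 2 and 64.2 CPM with hairpin 1 in ATRA, and 25.7 CPM and 39.0 CPM in DMSO; its part in the result was not tested. The median log2 fold change of hairpin 2 over hairpin 1 was −0.09. There were 3 members (3.95%) that passed in edgeR, where 0.732% of all genes were called lower and 1.3% higher.

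RPLP2 had 373 CPM with hairpin 2 and 439.5 CPM with hairpin 1 in ATRA, and 538 CPM with hairpin 2 and 634 CPM with hairpin 1 in DMSO (log2 fold change −0.23 ± 0.0499, SE; adjusted p = 0.01). RPS2 had 1056 CPM and 1193 CPM in ATRA, and 1566 CPM and 1746 CPM in DMSO, with hairpin 2 and hairpin 1 in that order (−0.16 ± 0.042, SE; adjusted p = 0.041). RPL13 had 1232 CPM and 1429.5 CPM in ATRA, and 2146 CPM and 2318 CPM in DMSO, in the same order (−0.16 ± 0.0415, SE; adjusted p = 0.045). RPS15A (−0.18), RPL38 (−0.18) and RPS29 (−0.17) had values as low without passing. DESeq2 called 0 members and limma-voom 12, and RPLP2 passed in 8, RPS2 in 4 and RPL13 in 3 of 10 alternatives. The share of all genes called with DESeq2 or limma-voom is not given here, so these 2 numbers have no background. RPL39L had the opposite sign, at 6.56 CPM with hairpin 2 and 5.34 CPM with hairpin 1 in ATRA, and 16.5 CPM and 13.3 CPM in DMSO (0.30 ± 0.116, SE; adjusted p = 0.26).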

How the data were processed

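Per the labels' protocols, total RNA came from GeneJET purification and libraries from the NEBNext Ultra RNA kit, and each sample was sequenced 2 times. The submitters' processing notes name bcl2fastq, STAR, Picard 2.5.0, DESeq2 and the build GRCh37.p13; no source used here names the counting tool or its strand setting. The authors deposited raw counts per gene, not normalized, in 12 columns, 2 for each of 6 libraries, which were taken as its 2 runs, since the columns share its construct and treatment, and summed (29291209 to 58099733 counts); 12 normalized columns were not used. The authors' deposited tables also hold log2 fold changes and p-values of knockdown against control, in columns named as DESeq2 names them.

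Genes in both tables (12301) were scaled by TMM with full table totals as library sizes and tested with edgeR 4.0.16 (filterByExpr, glmQLFit, glmQLFTest, Benjamini-Hochberg over all genes). ATRA was fitted with knockdown state as a term, knockdown within a treatment and the interaction over 4 groups, and hairpin 2 against hairpin 1 in the 4 knockdown libraries, adjusted for treatment. CPM used the TMM sizes. Alternatives were DESeq2 1.42.0, limma 3.58.1 (voom), other scalings, no filter, single runs, runs at equal depth, libraries left out and a construct block; the fits were tested on simulated data. Coding lengths, neighbours and pseudogene names came from GENCODE 29 by symbol and promoters from RefSeq GRCh38.p14; no coordinate was combined with the authors' build.

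The genes and lists were chosen with earlier results of these data known. Each comparison names the up to 6 members with the largest positive and the up to 6 with the largest negative fold change; that this meant above and below 0 was settled after the values were seen. For ATRA, members that did not pass, the 10 highest per kb and the role lists were added. Other lists name the 2 largest changes each way. Some items are not reported here.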

Additional observations from a re-analysis of the deposited data

How the results depend on the processing

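The counts of 72 members lower and 2 higher in ATRA were the same under every alternative but scaling by total counts, which added RPS27 (−0.147, adjusted p = 0.0335), gave a median of −0.721 and made 38.9% of all called genes higher, against 48.9%. Leaving out 1 library at a time gave ATRA medians from −0.622 to −0.54. The same gave knockdown medians of −0.181 to −0.08 in ATRA, −0.036 to 0.038 in DMSO and −0.126 to −0.016 over both, with no member called. The interaction median was −0.127 with DESeq2, with its size factors and in run 2, −0.085 with TMM over the members' coding lengths and −0.134 with TMM without the members. It was −0.118 with limma-voom, −0.099 in run 1, −0.128 with runs at equal depth and −0.104 with total counts, and −0.173 to −0.078 without 1 library.

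The hairpin median was −0.092 with DESeq2 and with its size factors, −0.087 with TMM over coding lengths, −0.091 with TMM without the members and with limma-voom, −0.094 in run 1, −0.088 in run 2, −0.093 at equal depth and −0.076 with total counts. The number of members lower with hairpin 2 was 0 with DESeq2 and at equal depth, where counts are fewer by construction, 1 with either other TMM and with total counts, 5 with DESeq2 size factors and 12 with limma-voom. The share of all genes called under each of these settings is not given here, so these numbers cannot be set against it. Without a knockdown library that fit has no residual degree of freedom, so that no test was made. DESeq2 called 1 member in the knockdown in ATRA. Where not stated, the cause was not tested.

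With the construct as replicate block the ATRA counts did not change and the interaction median was −0.119. The block called 4 members lower with knockdown in ATRA (RPS2, RPS3, RPS3A and RPS6, adjusted p = 0.0486, 0.00713, 0.0457 and 0.00477). In DMSO it called 1 (RPS2, adjusted p = 0.0279), edgeR in each case. The share of all genes that the block called is not given here, so these calls cannot be read as particular to the members. The deviations of same-construct libraries correlated at 0.197 (hairpin 1), 0.212 (hairpin 2) and 0.08 (control) over 9467 genes; every library correlated best with its own construct, a hint from the data and not from the labels, which do not pair them.

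Small values changed sign. In DMSO, RPL38 was −0.023 and RPL39 −0.034 in run 2, and RPS25 −0.015 to 0.163 without 1 library. In ATRA, RPL41 was −0.0084 in run 2, −0.002 at equal depth and −0.0096 to 0.089 without 1 library, and RPS27L −0.081 in run 1. Over both treatments, RPL41 was −0.015 in run 1, −0.027 in run 2, −0.025 at equal depth and −0.0095 to 0.039 without 1 library. RPS25 was −0.022 in run 2, −0.01 at equal depth and −0.03 to 0.066 without 1 library, and RPS27L −0.038 in run 1. RPS15, at 0.00, was −0.0004 with the block, −0.078 in run 1, −0.045 in run 2, −0.057 at equal depth, −0.0059 with total counts and −0.018 to 0.023 without 1 library. In the interaction, RPLP0 was −0.0052 with DESeq2 and its size factors, −0.012 with TMM without the members, −0.0023 in run 2, −0.0094 at equal depth and −0.059 to 0.043 without 1 library; RPS2 was −0.045 to 0.117, and RPL41 −0.00016 to 0.089, without 1 library. Between hairpins, RPS26 was −0.00048 with DESeq2, −0.00057 with its size factors, −0.025 in run 2 and −0.038 at equal depth. In ATRA against DMSO, RPS27 was −0.062 to 0.046 without 1 library, above 0 without hairpin 2 in ATRA and without hairpin 1 in DMSO.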

Other observations

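Genes next to the members on the chromosome did not share a direction. Of 114 neighbouring protein-coding genes tested (GENCODE 29 order), 37 rose and 47 fell in ATRA, where 36.2% of all genes tested rose and 37.8% fell. RPS9 is overlapped on the opposite strand by LILRB3, an inhibitory receptor of myeloid cells, which had 21.7, 21.9 and 24.3 CPM with hairpin 1, with hairpin 2 and in the control in ATRA, against 0.73, 0.365 and 0.876 CPM in DMSO. On its other side TSEN34, a tRNA splicing endonuclease subunit, rose by 1.13 on the log2 scale. RPS19 lies next to CD79A, a B cell receptor component, on the same strand and without overlap; CD79A had 34.1, 34.0 and 34.4 CPM in ATRA, against 1.01, 0.957 and 1.46 CPM in DMSO. RPS27L lies next to RAB8B, which rose by 2.09 on the log2 scale.

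A neighbour that rose by at least 2 on the log2 scale was found beside 10 members. Of these 7 fell and RPS9, RPS19 and RPS27L did not, where 72 of all 76 members fell. The limit of 2 was not fixed in advance, and RAB8B beside RPS27L lay just above it, so that these counts are no test. RPS27, which did not fall either, lies between RAB13 and NUP210L, at 0.155 and −0.94 on the log2 scale. RPS14 lies beside CD74, the invariant chain of MHC class II, which rose by 4.42. RPL27 lies beside IFI35, which rose by 4.02, and RPLP0 beside PXN, the focal adhesion protein paxillin, which rose by 3.72. RPS9 averaged 753 CPM in ATRA and 526 CPM in DMSO, and RPS19 615 CPM in ATRA and 471 CPM in DMSO. Whether reads of neighbours entered the counts of RPS9 or RPS19 was not tested.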
